A study of Homo sapiens with 2 samples.

Results

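The SR proteins and their TRA2 relatives are regulators of splicing, and many of their own genes carry poison exons. The 10 genes described here are SRSF2, SRSF3, SRSF4, SRSF5, SRSF6, SRSF7, SRSF10, SRSF11, TRA2A and TRA2B. Every splicing event listed under one of these gene symbols was taken, which gave 120 events of 159490 and 10 of 12254 listed genes. Phosphorylation of SR proteins is a reported target of amiloride, a diuretic and ion channel blocker, which is why the family was singled out. All cells were HEK293T, an established human embryonic kidney line grown in DMEM with serum and antibiotics, and per the study's methods antibiotic-free medium was used from the day before treatment. The control cells received no drug, and the amiloride cells were kept for 6 h in medium with 300 µg/mL of the drug. Polyadenylated RNA of each condition was sequenced as 1 library, so there were no replicates.

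The deposited tables hold a single list of events for both libraries, with reads and inclusion levels under library numbers that are tied to neither condition. These values and the comparison statistics derived from them were not used here. The direction and size of any change with amiloride, the inclusion level of each exon and the depth per library are therefore not reported. What follows describes which exons and introns of these genes were listed as alternatively spliced, and the sequences that define some of them. The reading frame was followed for skipped exons and retained introns where the canonical transcript allowed it. It was not followed for mutually exclusive exons. A listing shows neither that an exon was used often nor that it differed between the libraries.

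SR proteins bind RNA through 1 or more RNA recognition motifs and contact other splicing factors through a domain rich in arginine-serine dipeptides, which SRPK and CLK kinases phosphorylate. Many of these genes contain a poison exon, an alternative exon whose inclusion places a stop codon far ahead of the last exon-exon junction. Such a transcript is usually degraded by nonsense-mediated decay, and several SR proteins and TRA2B are known to promote the poison exon of their own transcript, which limits their level. Here an exon was called a poison exon when it lay outside the canonical transcript and its insertion between neighbouring canonical exons put the first in-frame stop more than 50 bases before the last junction.

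By this definition, 5 of the 43 distinct skipped exons listed for the family were poison exons, and they lay in 4 genes. The definition was not applied to the listed exons of other genes, so this is no sign that the family has more than its share. SRSF2, SRSF3 and SRSF6 had 1 each and TRA2A had 2. The other 6 genes had none among their listed skipped exons. All positions are on GRCh37. The splice sites of the 5 exons are shown because their scores are compared later. The 3' splice site is given as 20 intron bases and 3 exon bases with the AG in capitals, and the 5' splice site as 3 exon bases and 6 intron bases with the GT in capitals, each 5' to 3' on the strand of the gene.
SRSF2, chr17:74731854-74731957, minus strand, 3' site: tgcattttccccctttaaAGctg
SRSF2, the same exon, 5' site: cagGTttgt
SRSF3, chr6:36567598-36568053, plus strand, 3' site: aaaaatgaaccccgttacAGagt
SRSF3, the same exon, 5' site: ctaGTaagt
SRSF6, chr20:42087793-42088060, plus strand, 3' site: ttgatgtttcaatttgaaAGtga
SRSF6, the same exon, 5' site: gatGTaagt
TRA2A, chr7:23561751-23562051, minus strand, 3' site: aatgttctttttccattaAGgtt
TRA2A, the same exon, 5' site: tagGTtaag
TRA2A, chr7:23570800-23570889, minus strand, 3' site: tccttggctctctatttcAGtga
TRA2A, the same exon, 5' site: gtgGTtagt

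In 3 of the exons the stop codon lay downstream of the exon's first codon. The stretch from the first exon base to that stop is printed here with the stop in capitals, because it is what each exon adds to the open reading frame.
SRSF3, 456-base exon: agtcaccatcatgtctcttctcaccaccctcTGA
SRSF6, 268-base exon: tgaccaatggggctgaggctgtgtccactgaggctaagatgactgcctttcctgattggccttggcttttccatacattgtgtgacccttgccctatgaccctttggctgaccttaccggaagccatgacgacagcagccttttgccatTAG
TRA2A, 301-base exon: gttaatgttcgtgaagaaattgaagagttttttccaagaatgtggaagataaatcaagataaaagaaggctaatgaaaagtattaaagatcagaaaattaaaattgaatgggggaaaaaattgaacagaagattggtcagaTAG
In the 90-base exon of TRA2A the first 3 exon bases, tga in its 3' site above, were themselves the in-frame stop. The 268-base exon of SRSF6 began with the same 3 letters, but there they were not in frame with the upstream exon.

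**Figure D1:**
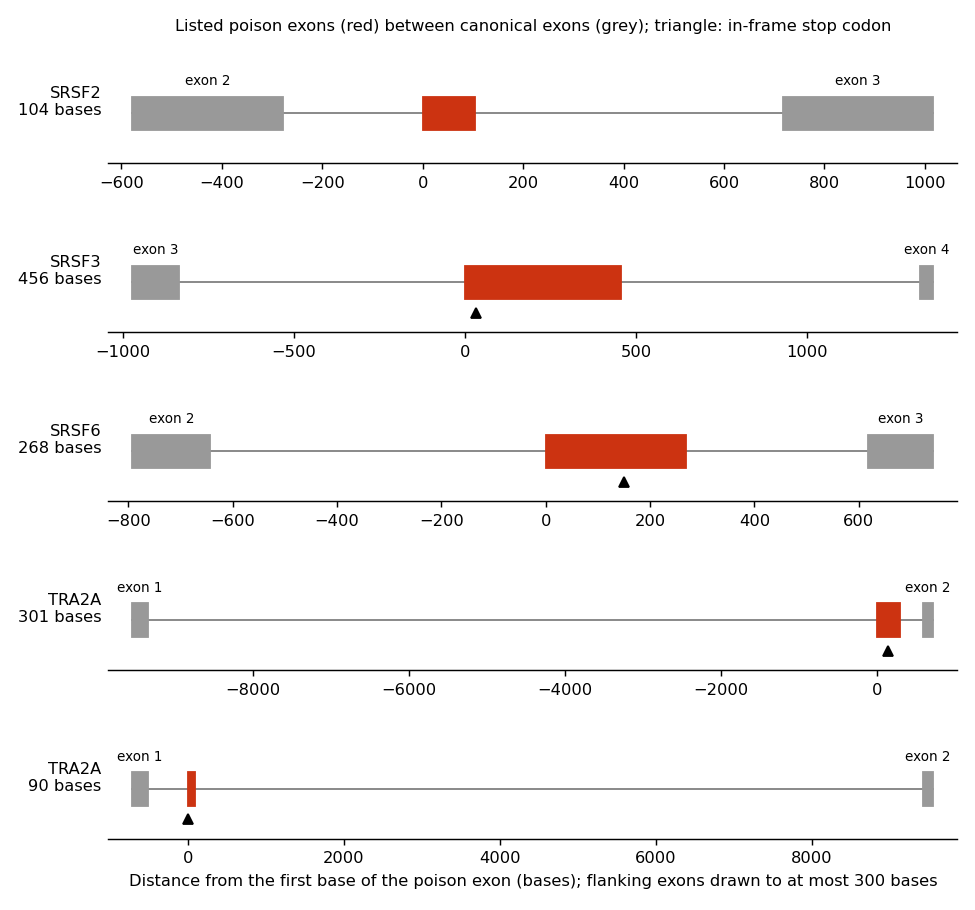
Position of each listed poison exon (red) between its canonical neighbours (grey), in bases from the first base of the poison exon and drawn 5' to 3' on the strand of the gene, with a separate scale for each row and flanking exons drawn to at most 300 bases. The triangle marks the first in-frame stop codon, which lay at base 32 in SRSF3, base 150 in SRSF6, and bases 142 and 1 in the 301-base and 90-base exons of TRA2A; the SRSF2 exon lies after the stop codon and carries none.

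SRSF3 encodes the shortest protein of the 10, an SR protein with a single RNA recognition motif that also acts in mRNA export. Its 456-base poison exon lay between canonical exons 3 and 4, 837 bases after the former and 875 bases before the latter. With the exon, the open reading frame shrank from 164 to 124 codons. The first 114 codons were shared with the full protein and 10 came from the poison exon. Most of the arginine-serine domain was lost, with 4 of the 25 RS and SR dipeptides of the full protein left. The stop fell 548 bases before the last junction. The exon was listed in 2 skipped-exon events, and in 1 further event it was mutually exclusive with canonical exon 4.

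SRSF6 encodes an SR protein with a pair of RNA recognition motifs. Its 268-base poison exon lay between canonical exons 2 and 3, with introns of 643 and 350 bases on either side. The reading frame fell from 344 to 135 codons, of which 85 were shared with the full protein and 50 were new. Of 76 RS and SR dipeptides, 2 were left. The stop fell 534 bases before the last junction. The exon had 2 skipped-exon events, and was mutually exclusive with canonical exon 2 in another.

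SRSF2 encodes an SR protein that acts in both constitutive and alternative splicing. Its 104-base poison exon differs from the others in place, because it lies in the 3' UTR between canonical exons 2 and 3. All 221 codons and all 52 RS and SR dipeptides were therefore kept. The normal stop codon lay 7 bases before the last junction without the exon and 111 bases before it with the exon, which is what met the definition. The exon was in 1 skipped-exon event and in no mutually exclusive event. The only other SRSF2 event was the retention of the whole 995-base intron that holds the poison exon, chr17:74731241-74732235, which likewise left the 221 codons as they were.

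TRA2A encodes one of the 2 human Transformer-2 proteins, sequence-specific activators that bind GAA-rich exonic sequence. Both of its poison exons lay between canonical exons 1 and 2. The 301-base exon was 9356 bases after exon 1 and 291 bases before exon 2, and the 90-base exon 518 bases after exon 1 and 9340 bases before exon 2. With the 301-base exon the reading frame had 59 codons in place of 282, with 12 shared and 47 new. With the 90-base exon it had the 12 shared codons alone. Neither form kept any of the 40 RS and SR dipeptides. The stops fell 959 and 889 bases before the last junction. The 301-base exon was skipped in 3 listed events and the 90-base exon in 2. The 301-base exon was also in 3 mutually exclusive events and the 90-base exon in 1, which paired the poison exons with each other. GENCODE release 44 holds each exon in 2 transcripts. For the 301-base exon 1 of these has the decay biotype, and for the 90-base exon 0 do, so the latter is a poison exon by its reading frame from the canonical start codon and not by the annotation. An annotated coding transcript holds the junction from the 5' splice site of the 90-base exon to canonical exon 2. Reading frames from other start codons were not followed for that junction.

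**Figure D2:**
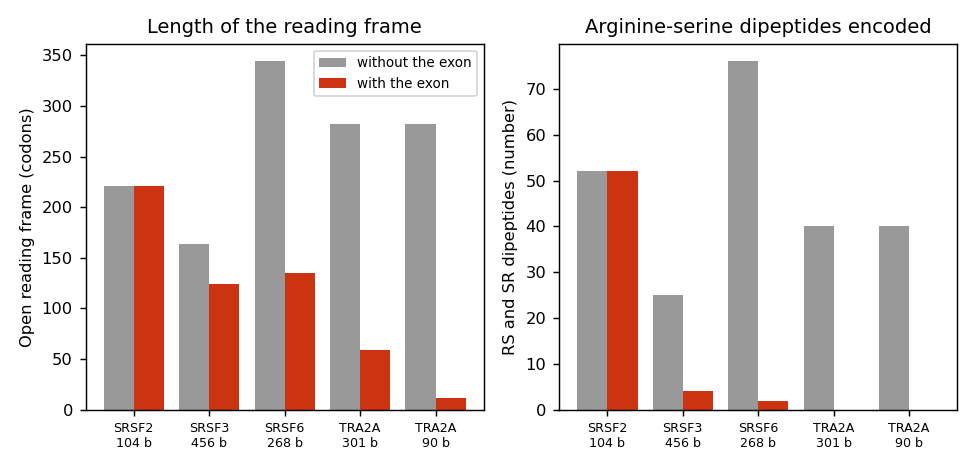
Codons in the open reading frame (left) and RS and SR dipeptides encoded (right) for the canonical transcript (grey) and for the same transcript with the poison exon inserted (red), for each of the 5 exons, labelled by gene and length in bases. SRSF2 is unchanged at 221 codons and 52 dipeptides, SRSF3 keeps 4 of 25 dipeptides, SRSF6 2 of 76, and both TRA2A forms keep 0 of 40.

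The annotation holds more exons of this kind than the event list did. Between canonical exons of the 10 genes, GENCODE has 24 exons that met the same definition, in 9 genes, and 5 of these were listed as skipped exons. All annotated exons of this kind were listed for SRSF2 (1 of 1) and SRSF6 (1 of 1). For SRSF3 the count was 1 of 2, and for TRA2A it was 2 of 4. For SRSF4 it was 0 of 6, for SRSF11 0 of 4, for SRSF7 0 of 3, for TRA2B 0 of 2 and for SRSF10 0 of 1, and SRSF5 had none annotated. These counts take exons that share a splice site as separate exons. They leave out annotated exons that overlap a canonical exon. The unlisted TRA2A exons, of 312 and 79 bases, share the 3' splice site of the listed 301-base exon. Among the SRSF4 exons, some share the start chr1:29486376 and others the start chr1:29493241. The unlisted exons include a 276-base exon of TRA2B, chr3:185649365-185649640, between canonical exons and the 276-base and 449-base exons of SRSF7 that share the start chr2:38976040. The 363-base exon of SRSF10, chr1:24304401-24304763, was used as a flanking exon in 1 skipped-exon event although it was not listed as skipped itself. These unlisted exons were chosen for mention after the list had been seen. The annotation that was given to rMATS is not stated in the sources used here, so an exon that was not in it and an exon without reads cannot be told apart.

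Of the 120 events, 73 were skipped exons, 35 mutually exclusive exons, 10 alternative 3' splice sites and 2 retained introns, while alternative 5' splice sites numbered 0. Skipped exons occurred in all 10 genes. TRA2A had the most events, 27, and 86.4% of listed genes had fewer. SRSF11 had 21, SRSF10 had 20 and SRSF5 had 16. SRSF2, which has 3 canonical exons and so 1 internal one, had 2. The median was 8.5 per member and 8 per listed gene, and the family as a whole thus sat near the middle of the list. Of all alternative 3' splice site events in the tables, 0.349% belonged to the family, against 0.0643% of all skipped-exon events. Of the 10 alternative 3' splice site events, 7 were in SRSF10 alone.

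Among the other genes of the pathway, SRSF1, SRSF8, SRSF9 and SRSF12 are the SR proteins outside this set, and 3 of the 4 were listed, with 1 to 2 events each. SRSF12 had 0. All 8 SR-related proteins looked at were listed with 10 to 33 events, a median of 15. All 7 genes for kinases and import of SR proteins, CLK1 to CLK4, SRPK1, SRPK2 and the importin TNPO3, were listed with 8 to 29 events, a median of 22. All 8 genes of nonsense-mediated decay were listed with 15 to 56 events, a median of 23.5. The members, with 2 to 27 events, thus had fewer at the median than the decay factors and kinases, whose canonical exon numbers were not compared.

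The 43 distinct skipped exons of the family were 36 to 456 bases long with a median of 111 bases, against 114 for the 67154 distinct skipped exons listed in all. A length divisible by 3 was found for 22 of the 43, or 51.2%, and for 38.8% of all listed exons. All 43 lay between an AG and a GT, as did 98.9% of all. The canonical transcript held 32 of them, and another coding transcript held 4 as coding exons. Another 6 were annotated, but not as a coding exon of a coding transcript, and 1 was in no annotated transcript. The poison exons were mostly long: 98.2% of listed exons were shorter than the SRSF3 exon, 96.8% shorter than the 301-base TRA2A exon and 96.0% shorter than the SRSF6 exon. The SRSF2 exon (41.5%) and the 90-base TRA2A exon (29.97%) were of ordinary length. In all 73 events the inclusion form had an effective length equal to the 125 bases of the skipping form plus the exon itself, so that reads on the body of a long poison exon count towards inclusion.

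The exon in no annotated transcript was in SRSF10, chr1:24297828-24297929, 102 bases. SRSF10 encodes an SR protein known as a splicing repressor when it is dephosphorylated, as in heat shock. The 102 bases are the first part of the last canonical exon, which is left at a 5' splice site that GENCODE does not have. The retained intron of SRSF10, chr1:24294214-24297827, begins at the next base and is 3614 bases of the same last exon. Another 6 SRSF10 events were alternative 3' splice sites that remove 233, 3483 or 3716 bases of this last exon, 2 events for each length. The 102 and 3614 bases add up to the 3716. Adjoining or overlapping parts of the last canonical exon of SRSF10 were thus listed as a skipped exon, as a retained intron and as alternative 3' splice sites.

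The remaining 4 alternative 3' splice site events used AG pairs 3 bases apart and so add or remove 1 codon where they lie in coding sequence. They are shown with the 3 optional bases in capitals, which are kept when the first AG is used and lost when the second is.
SRSF10, chr1:24298114-24298116, minus strand: tatgctttttagCAGtagaccgac
SRSF11, chr1:70716291-70716293, plus strand: tccttggcaaagCAGgttacacgg
SRSF11, chr1:70687295-70687297, plus strand: gatgtgttaaagCAGgagcgagaa
TRA2A, chr7:23545430-23545432, minus strand: catttcttacagAAGacgatcacc
In 3 of the 4 the optional bases were CAG, and in TRA2A they were AAG. The longer form is canonical in SRSF10 and TRA2A. In SRSF11 neither form, compared by both exon ends, is an exon of the canonical transcript. The SRSF11 pair at chr1:70687295-70687297 lies inside the first canonical exon and ahead of the coding sequence, so that transcript uses neither AG there. Whether the transcript uses either AG of the other SRSF11 pair with another exon end was not looked at. The upstream AG scored higher in SRSF10 (8.27 against 7.01) and TRA2A (13.02 against 7.21), and the downstream AG in both SRSF11 pairs (6.34 against 4.55 and 4.39 against 2.39), on the splice site score that is explained with the poison exons' scores. None of the alternative splice site events changed a poison exon.

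Skipping a canonical exon was the more frequent kind of event in the family, and it too can put a stop codon early. For 27 canonical exons in 9 genes the list held the event that joins their canonical neighbours. In 13 of them the skip gave a stop more than 50 bases before the last junction, and in 14 it did not. The division followed length: 0 of the 12 exons divisible by 3 gave such a stop, and 13 of the 15 others did. Early stops were counted for the member genes only, so no share over all listed exons can be set beside these counts. In SRSF3 (0 of 2), SRSF7 (0 of 2) and SRSF10 (0 of 1) no skip between canonical neighbours gave an early stop. In SRSF4 it was 2 of 3, in SRSF5 2 of 3, in SRSF6 1 of 1, in SRSF11 3 of 5, in TRA2A 3 of 6 and in TRA2B 2 of 4. SRSF5 had no annotated poison exon by the definition used here. It had early stops listed through skips of its canonical exons 5 and 6, which left 104 and 124 of 272 codons. SRSF4, whose 6 annotated poison exons were unlisted, had them through exons 3 and 4, which left 103 and 130 of 494 codons. Among the 13 skips with an early stop, only that of TRA2B exon 2 used a skipping junction found in an annotated transcript. The SRSF5 and SRSF4 skips thus rest on unannotated junctions. Between canonical neighbours, the poison exons had annotated junctions for both skipping and inclusion. The 2 exceptions among exons not divisible by 3 were SRSF11 exon 7, which left 390 of 484 codons and a stop 2 bases before the last junction, and TRA2A exon 7, whose skip changed the end of the frame and lengthened it from 282 to 301 codons. The other 41 skipped-exon events did not join canonical neighbours. Their skipping form gave an early stop in 11 and none in 16, and for 14 the frame could not be followed along the canonical transcript. In most of the 11 the stop came early both without the exon and with it. These events were in SRSF4, SRSF5, SRSF6, SRSF10, SRSF11, TRA2A and TRA2B. The SRSF10 event holds a 165-base exon and gave 40 codons without it and 69 codons with it.

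**Figure D3:**
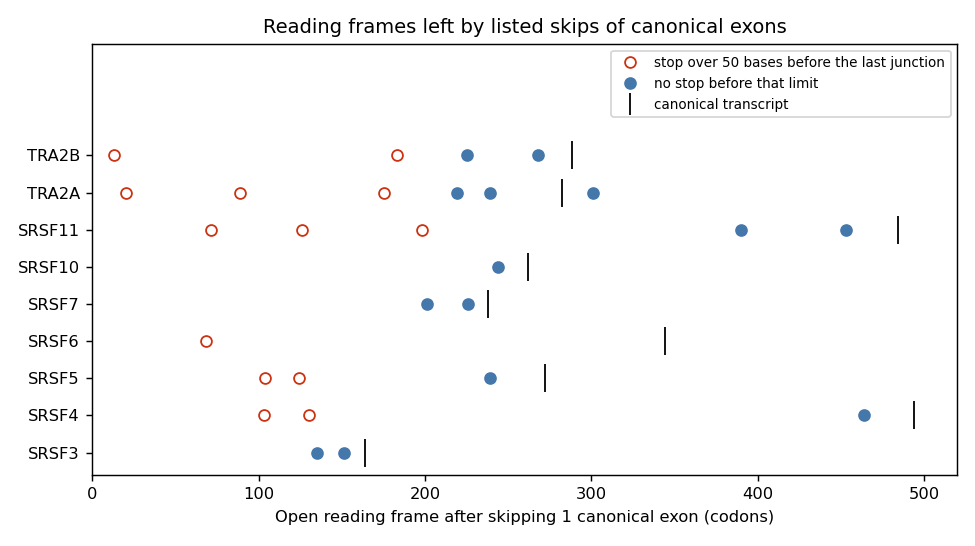
Codons left in the open reading frame when 1 canonical exon is skipped, for the 27 canonical exons whose skip between canonical neighbours was listed, by gene. Open red circles have a stop more than 50 bases before the last exon-exon junction, filled blue circles do not, and the black bar is the canonical length; the open circles lie between 13 and 198 codons.

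TRA2A and TRA2B are paralogues with several canonical exons listed as skipped in both. Canonical exons 2, 4 and 5 have the same length in the 2 genes, 134, 189 and 116 bases. Compared position by position, without an alignment that allows gaps, 42.5%, 73.0% and 75.9% of the bases were identical. Skipping exon 2 left 20 codons in TRA2A and 13 in TRA2B. Skipping exon 5 left 175 and 183 codons, again with an early stop in both. Skipping exon 4 kept the frame in both and left 219 and 225 codons. Poison exons listed as skipped numbered 2 for TRA2A and 0 for TRA2B.

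Each splice site was scored by adding, over its bases, the log2 of how often annotated sites carry that base relative to an even mix of the 4 bases, so that a higher score is closer to the common sequence. The median of all listed skipped exons was 8.07 at the 5' splice site and 9.21 at the 3' splice site. For the 32 canonical exons of the family it was 7.53 and 9.65, and for the 5 poison exons 6.35 and 8.58. At each site 1 of the 5 poison exons was above the median of all listed exons, against 13 (5') and 18 (3') of the 32 canonical exons. Poison exons and canonical exons overlapped in both scores, and exons are not replicates, so no test was made.

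The low score lay at a different end in different genes. The SRSF3 exon had a 3' score of 1.295, lower than in all but 1.57% of listed exons, beside a 5' score of 7.504. The SRSF6 exon had a 3' score of 2.26, with 2.61% of listed exons lower, beside a 5' score of 8.39. In both 3' sites printed above, a and g interrupt the run of c and t that is usual before the AG. The 301-base TRA2A exon was the opposite, with a 3' score of 10.63 and a 5' score of 3.01, with 2.64% of listed exons lower. The 90-base TRA2A exon scored 5.69 (5') and 9.014 (3'), and the SRSF2 exon 6.35 and 8.58.

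When a poison exon is skipped, the 5' site of the exon before it is joined to the 3' site of the exon after it, so these are the sites it can be set against. At the 3' site, the score of the poison exon minus that of the next canonical exon was -11.16 in SRSF3 (1.295 against 12.45), the widest gap of the 5. It was -2.38 in SRSF6 (2.26 against 4.64) and -1.68 in SRSF2 (8.58 against 10.25). In TRA2A it was 1.62 for the 301-base exon (10.63 against 9.005) and 0.0095 for the 90-base exon (9.014 against 9.005), which is no difference in practice and became -0.14 when base frequencies were taken from the listed exons. At the 5' site, the same difference from the preceding canonical exon was 2.996 in SRSF6 (8.39 against 5.39), 0.94 in SRSF3 (7.504 against 6.57) and 0.39 in SRSF2 (6.35 against 5.96). In TRA2A it was -3.39 for the 301-base exon (3.01 against 6.41) and -0.72 for the 90-base exon (5.69 against 6.41). In the 3 SR protein genes the poison exon had the lower 3' site and the higher 5' site of each pair, and in TRA2A both poison exons had the lower 5' site.

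TRA2 proteins bind the motif GAAGAA, which was searched on the sense strand of each exon with overlapping matches counted. It was in 1 of the 5 poison exons, the 301-base exon of TRA2A, with 4 matches. This exon was 68.4% purines, which shows in the sequence printed above. The motif was in 13.9% of all listed exons and in 4 of the 32 canonical exons of the family (12.5%). AGAAGA, which overlaps it, was likewise in 1 of 5 poison exons. It was in 8 of the 32 canonical exons (25%) and in 13.8% of listed exons. The median purine content of the poison exons, 49.0%, was below that of all listed exons, 52.9%. A match is a description of the letters and not a measured binding site.

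Most skipping events of the family rest on junctions that the annotation does not have. The junction that skips the exon was in no annotated transcript for 57 of the 73 events, 78.1% (95% Wilson interval 67.3 to 86.0, covering counting error only), against 82.0% over all listed events. It was unannotated in all 10 events of SRSF5 and all 12 of SRSF11. At least 1 of the inclusion junctions was unannotated in 26 events, 35.6% (25.6 to 47.1), against 43.0% of all. Both intervals of the family held the share of the whole list. When only coding transcripts were taken as annotation, the skipping junction was absent for 59 of the 73 events, 80.8% (70.3 to 88.2). It was absent for 88.4% of all, just above that interval. Several of the 73 events share an exon or a skipping junction and are not independent, so these intervals can be too narrow. Whether the family differs from the whole list was not tested.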

How the data were processed

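Polyadenylated RNA of HEK293T cells was sequenced as 1 control and 1 amiloride library. Per the labels the authors aligned reads with STAR 2.5.1 to hg19, GRCh37, and they compared the libraries with rMATS, whose version and annotation are not given in the sources used here. The 5 deposited tables hold, per event, coordinates, effective lengths in bases, and columns of reads, inclusion levels, p-values, FDR and the inclusion level difference. The 30 columns of reads and inclusion levels (over the 5 tables) name library numbers and no sample. They were not used, nor were the authors' comparison columns. No test of the conditions was possible.

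Coordinates are 1-based. Exons were compared with GENCODE release 44 lifted to GRCh37, and inserted into or removed from the canonical transcript. Splice site scores cover 9 bases (5') and 23 bases (3') with a pseudocount of 0.5, from 300873 and 300290 annotated sites. The functions were tested on simulated data. The genes, the lists and the definitions were chosen with earlier results of these data known. The exons named are every poison exon, retained intron and unannotated skipped exon of a member, and further exons named (canonical exons, 3-base splice sites, unlisted exons) were chosen after their values were seen. Alternatives were other definitions of a poison exon, an event and an annotated junction, other base frequencies, and another motif. Counting all annotated intron exons, counting exons of decay transcripts outside the canonical transcript, and comparing the TRA2 paralogues were added after seeing the data. Python 3.11.15, pandas 2.3.3, numpy 2.4.6, pysam 0.24.0, statsmodels 0.14.6 and matplotlib 3.10.9 were used.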

Additional observations from a re-analysis of the deposited data

How the results depend on the processing

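Of 14 alternatives for counts, 12 stayed within 1.5 times the reported count and 2 did not. Of 6 alternatives for shares of listed exons, 2 stayed within the 95% counting interval of the reported share, which is narrow at 67154 exons, and 4 did not. The family had 120 events, or 80 when each exon, exon pair, stretch and intron was counted once, and 43 skipped exons, or 40 when exons that share a splice site were merged. The poison exons were 5 when any stop before the last junction counted and when any coding transcript served as the frame. Skipped exons held by a transcript of the decay biotype numbered 37, most of them canonical exons, and 7 of these lay outside the canonical transcript. The 7 include 4 of the 5 poison exons and leave out the 90-base TRA2A exon. In all, 24 exons met the definition when annotated exons were counted whether listed or not. Of the skips of a canonical exon, 13 gave an early stop, or 14 when any stop before the last junction counted. The median 5' score of the poison exons was above 24.7% of listed exons, or 25.2% of those in 1 event only. The median 3' score was above 42.5%, or 41.8% with base frequencies of the listed exons and 43.6% of exons in 1 event only. With the frequencies of the listed exons, the 3' score of the 90-base TRA2A exon minus that of exon 2 was -0.14. Among listed exons of at least 150 bases, 19.9% held GAAGAA against 13.9% of all, and 1 of the 3 poison exons of this length held it. No paired analysis was possible because there was a single library on each side. Reads per event were not used, so the depth behind each listing is not known here.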
